A study of Mus musculus with 4 samples.

Results

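Binding of HA-tagged human WDR5 was examined at 7 genes that encode transcription factors of the eye field and optic cup, Lhx2, Six6, Six3, Rax, Pax6, Otx2 and Mitf. They are 7 of the 21887 protein-coding genes that RefSeq places on the nuclear chromosomes of GRCm38.p6, also known as mm10, and they were taken as a named list of genes. The rule uses no measured value, but the list was drawn up with results of these data known. A peak was assigned to a gene when its summit lay inside the gene or within 50 kb of either end. By this rule 2 of the 7 genes had peaks at T48h, Lhx2 with 5 and Six6 with 2, and none of the 7 had one at T12h. Six3, Rax, Pax6, Otx2 and Mitf had no peak at either time.

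The eye field is the patch of the anterior neural plate from which both eyes arise, and a small network of transcription factors that activate one another specifies it. Rax, Six3, Six6, Pax6 and Lhx2 act in the retinal progenitors that follow, Otx2 in the forebrain and later in pigment epithelium and photoreceptor precursors, and Mitf in the pigment epithelium. WDR5 is a scaffold subunit of the MLL and SET1 complexes, which methylate lysine 4 of histone H3.

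Mouse embryonic stem cells that carry GFP knocked in at Rx, another name of Rax, were grown as embryoid bodies by the SFEBq method. In both groups the cells lacked Wdr5 and carried HA-hWDR5 under doxycycline control, so no library came from cells with mouse Wdr5. The groups differed in the time of doxycycline addition, T12h or T48h, and the event from which these hours run is not given in the sources used here. A single ChIP library with its input was made for each time, from embryoid bodies at day 6 in medium with 5% KSR and with 2% Matrigel from day 1. Whether the cells had reached a retinal identity cannot be read from peak lists, since these hold no expression values.

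The T12h library gave 1197 peaks from 55539917 ChIP tags left after duplicate filtering, and the T48h library gave 660 peaks from 67116740. With 1 library for each time no difference between times has a replicate check, and no test was made of it. A missing peak means only that no region there passed the caller's p cutoff of 1e-05, since tag numbers outside called peaks were not analysed here. The score of a peak is 10 times the negative log10 of its p-value, so the cutoff stands at a score of 50, and the fold is its tag level over the local background. Both are the authors' values. A T12h peak could be called from as few as 12 tags and a T48h peak from as few as 13. The median false discovery rate was 3.0% in the T12h list and 9.625% in the T48h list, which holds all member peaks.

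RefSeq promoter sequences of GRCm38.p6 are shown for the downstream start of Lhx2 and the start of Six6, because the first peaks of both genes lie just past them, for the upstream start of Lhx2, whose first peak began 12407 bp past it, and for Six3, the closest relative of Six6 among the members, which had no peak. Each is the 250 bases before an annotated start on the plus strand, 5′ to 3′, with CpG dinucleotides in capitals. The windows lie at chr2:38339031-38339280, chr2:38351058-38351307, chr12:72939632-72939881 and chr17:85620584-85620833, in the order printed.
Lhx2 upstream start: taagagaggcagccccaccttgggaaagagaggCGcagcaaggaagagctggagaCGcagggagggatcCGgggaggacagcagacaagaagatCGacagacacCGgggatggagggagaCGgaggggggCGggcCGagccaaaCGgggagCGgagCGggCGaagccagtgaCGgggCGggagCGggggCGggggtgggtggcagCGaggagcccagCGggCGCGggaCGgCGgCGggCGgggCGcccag
Lhx2 downstream start: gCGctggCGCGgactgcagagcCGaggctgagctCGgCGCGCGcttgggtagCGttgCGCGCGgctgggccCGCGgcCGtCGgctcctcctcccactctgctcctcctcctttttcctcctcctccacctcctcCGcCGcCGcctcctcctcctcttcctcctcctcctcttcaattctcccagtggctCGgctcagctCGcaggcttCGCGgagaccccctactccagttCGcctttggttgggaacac
Six6: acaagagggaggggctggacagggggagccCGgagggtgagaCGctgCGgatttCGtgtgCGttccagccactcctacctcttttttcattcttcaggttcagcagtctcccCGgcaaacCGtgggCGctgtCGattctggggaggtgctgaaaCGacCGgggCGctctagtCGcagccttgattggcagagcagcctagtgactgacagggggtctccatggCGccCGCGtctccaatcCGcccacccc
Six3: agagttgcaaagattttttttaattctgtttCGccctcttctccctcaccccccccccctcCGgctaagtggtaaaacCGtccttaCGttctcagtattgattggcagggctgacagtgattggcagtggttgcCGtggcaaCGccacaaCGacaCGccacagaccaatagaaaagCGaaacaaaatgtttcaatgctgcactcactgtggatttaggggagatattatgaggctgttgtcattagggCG

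These windows held 25 and 24 CpG dinucleotides before the upstream and downstream starts of Lhx2, 17 before Six6 and 10 before Six3. Their GC content was 72.8%, 68.4%, 62.8% and 48.8% in the same order. The only listed Six3 start, chr17:85620834, lies inside the gene span, which begins at chr17:85613608. No Six3 window was therefore available at the first base of its span. No peak covered any of these windows, since the first Lhx2 peak began 380 bp past the downstream start and the first Six6 peak began 151 bp past its start.

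Lhx2 encodes a LIM homeodomain factor needed for the optic vesicle to form an optic cup. The gene spans chr2:38339271-38369737, or 30.5 kb, and its 5 T48h peaks all had their summits inside it. The first peak (chr2:38351688-38351955) held 24 tags over 268 bp, with a fold of 9.05, a score of 55.86 and a false discovery rate of 13.46%. It lay close to the caller's limit, and its summit was 528 bp past the downstream start. The second peak (chr2:38353281-38353585) held 37 tags over 305 bp, with a fold of 9.05, a score of 92.69 and a false discovery rate of 5.0%. The third peak (chr2:38354365-38354905) held 62 tags over 541 bp, with a fold of 9.82, a score of 178.92 and a false discovery rate of 3.48%. These 3 summits thus lay 528, 2123 and 3186 bp past the downstream start, with gaps of 1325 and 779 bp between peak edges.

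Farther on, the fourth Lhx2 peak (chr2:38359844-38360148) held 38 tags over 305 bp, with a fold of 6.32, a score of 81.87 and a false discovery rate of 6.7%. It had the lowest fold of the 7 peaks and stood apart from its neighbours, 4938 bp after the third peak and 8658 bp before the fifth. The fifth peak (chr2:38368807-38369633) held 130 tags over 827 bp, with a fold of 12.15, a score of 474.34 and a false discovery rate of 2.38%. It was the widest, the highest in tags and the highest in score of the 7, and it lay at the other end of the gene, with its summit 766 bp and its last base 104 bp before the annotated end. The lncRNA genes Gm27197 and Gm13584 also lie within the Lhx2 span. No Lhx2 summit fell inside either, but the fifth summit was 126 bp outside the boundary of Gm13584, where the annotation has a start of that gene, and the peak overlapped it by 39 bp. The peak cannot be given to one of the 2 genes by position.

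The 5 Lhx2 peaks together held 291 tags over 2246 bp. From the first base of the first to the last base of the last they stretched over 17.9 kb, 58.9% of the gene, and the peaks themselves covered 7.37% of it. The part of the gene between the upstream and the downstream start held no peak. The RefSeq tables used give gene spans and transcript starts but no exons, so whether these peaks lie in exons or introns was not determined. This bears on every fold and score given for Lhx2 and Six6, because cDNA or plasmid DNA in a library would give peaks at exons, and whether such DNA was present was not tested.

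Six6 encodes a homeodomain factor of the sine oculis family that acts in the optic vesicle, ventral retina and hypothalamus. The gene spans chr12:72939882-72944899, or 5.02 kb, with its 1 listed start at the first base, and it had 2 T48h peaks, both inside it. The first (chr12:72940033-72940224) held 21 tags over 192 bp, with a fold of 13.91, a score of 73.93 and a false discovery rate of 6.67%. The second (chr12:72940228-72940659) held 57 tags over 432 bp, with a fold of 17.03, a score of 205.43 and a false discovery rate of 3.67%. Their summits were 215 and 678 bp past the start, and only 3 bp separated the peaks, so they can be read as 1 region of 627 bp with 78 tags. The remainder of the gene, 4240 bp, held no peak. The nearest other gene, 4930447C04Rik, had its boundary 22140 bp from the first summit.

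**Figure D1:**
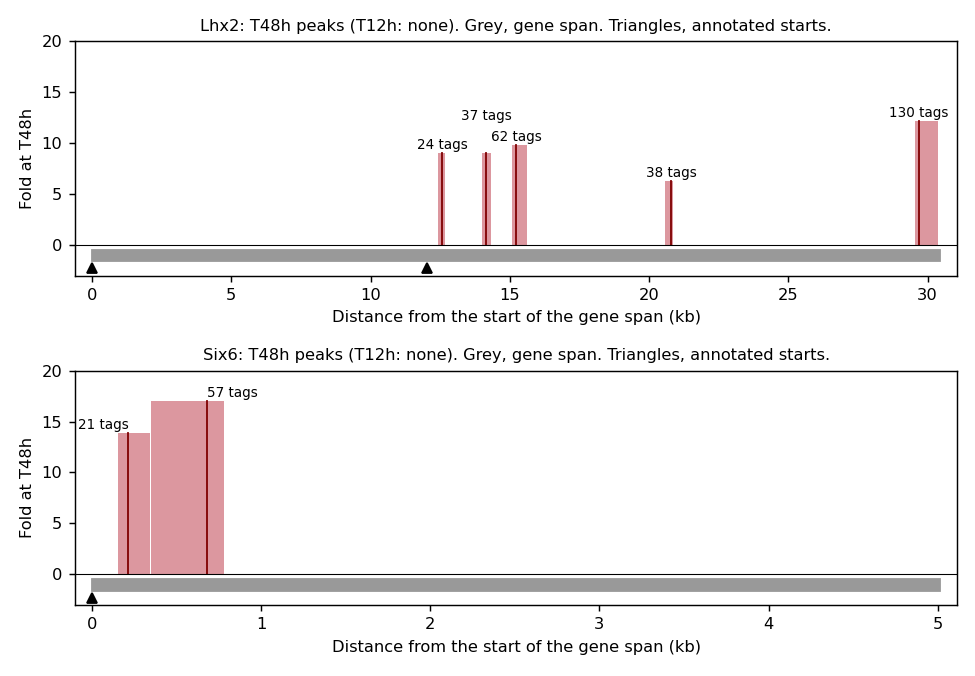
T48h peaks along Lhx2 (upper panel) and Six6 (lower panel), with the distance from the start of the gene span in kb on the x axis and the deposited fold on the y axis. Each box spans the peak's width, its dark line marks the summit, and its tag number is written above it. The Lhx2 peaks are spread from just past the downstream start to the 130-tag peak near the gene's end, while both Six6 peaks lie in the first part of the gene.

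The peaks of the 2 genes differed in deposited fold. The Six6 peaks had the higher folds, 13.91 and 17.03 against 6.32 to 12.15 in Lhx2, and the ranges did not overlap. Tag numbers showed no such order, with 21 and 57 in Six6 and 24 to 130 in Lhx2. Tag density pooled over the peaks was nearly equal, 125 tags per kb in Six6 and 130 in Lhx2. Single peaks ranged from 89.6 to 157 in Lhx2, highest in the fifth peak, and were 109 and 132 in Six6. Peaks of 1 gene come from 1 library and are not replicates, so these differences carry no test.

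Six3 (chr17:85613608-85626191), which encodes the sine oculis family factor closest to Six6 and is needed for the anterior forebrain and eye, had its nearest T48h summit at 666 kb and its nearest T12h summit at 1425 kb. Rax (chr18:65934639-65939089), which encodes a paired-type homeodomain factor without which eyes do not form, had them at 820 kb and 404 kb. Pax6 (chr2:105668896-105698410), the paired-box factor of eye development, was farther from any peak, with 2428 kb at T48h and 2765 kb at T12h. None of these 3 genes thus had a peak in its neighbourhood at either time.

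Otx2 (chr14:48656781-48667644), a homeodomain factor of the forebrain and pigment epithelium, had its nearest T12h summit at 116 kb. That peak lay inside Tmem260 (chr14:48540484-48540953) and held 56 tags with a fold of 9.59 and a score of 160.23. Mitf (chr6:97807002-98021360), a basic helix-loop-helix factor of pigment cells and the longest of the 7 genes at 214 kb, had its nearest T12h summit at 133 kb, in a peak of 21 tags with a fold of 8.38 that lay in no annotated gene. These were the first summits outside the 50 kb limit, while all 7 peaks inside it lay within the genes themselves. At T48h the nearest summits were 2972 kb from Otx2 and 2451 kb from Mitf. For Lhx2 and Six6 the nearest T12h summits were 635 kb and 403 kb away, in Rpl35 and Pcnx4, and both of those peaks were also found at T48h.

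**Figure D2:**
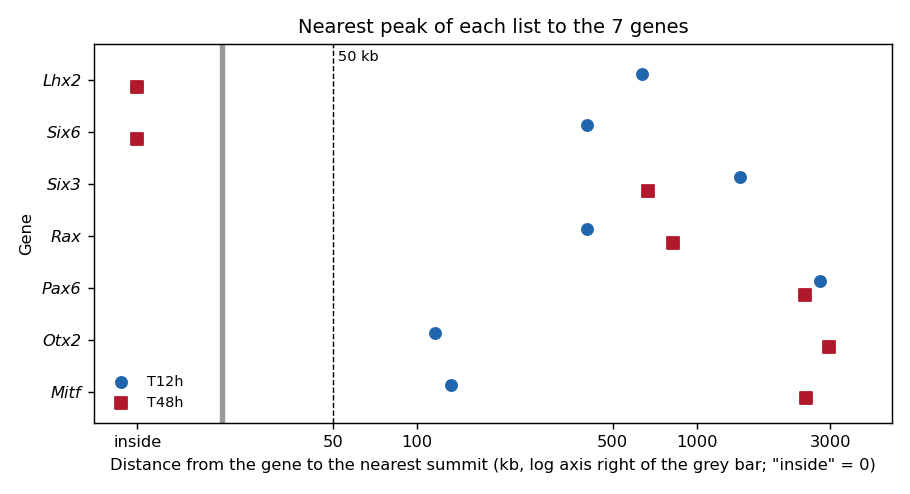
Distance from each of the 7 genes (y axis) to the nearest peak summit of the T12h list (circles) and the T48h list (squares), in kb on a log axis, with summits inside the gene placed left of the grey bar. Lhx2 and Six6 have T48h summits inside the gene, and every other point lies beyond the dashed line at 50 kb, the closest being Otx2 at 116 kb in the T12h list.

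Across all protein-coding genes, 12.3% had a summit inside or within 50 kb at T12h (exact binomial 95% interval 11.9 to 12.8) and 6.00% at T48h (5.69 to 6.33). Against these shares stand 0 of the 7 eye field genes at T12h and 2 of 7 at T48h. A share of 12.3% is less than 1 gene in 7. Counting only summits inside the gene, 3.22% of genes had one at T12h and 1.30% at T48h, and the members' counts stayed at 0 and 2, since every member peak was inside its gene. Since the list was not chosen blind to these data, these shares describe the background and test nothing.

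Holding several summits was rare, with 2 or more inside the gene in 16 protein-coding genes at T48h, or 0.0731%, and Lhx2 and Six6 were both among them. At T12h 0.155% of protein-coding genes held 2 or more, and none of the 7 eye field genes did. Lhx2 and the pluripotency gene Esrrb were the 2 genes, or 0.00914%, that held 5 or more at T48h, and Esrrb spans 161 kb against 30.5 kb for Lhx2. All 5 Lhx2 peaks had no T12h counterpart, whereas 3 of the 5 in Esrrb had none. The glucocorticoid receptor gene Nr3c1 held 4 in 109 kb, all without a counterpart, with a median fold of 12.525 against 9.05 in Lhx2. The proto-oncogene Mycn, which at 5.74 kb is about as short as Six6, also held 2 without a counterpart, with a median width of 1109 bp against 312 bp in Six6. Of the 16 genes, 7 had no T12h summit inside, namely Lhx2, Six6, Nr3c1, Mycn, Pcdh15, Ptprn2 and Zfp978. Pcdh15, Ptprn2 and Zfp978 span 1554, 792 and 267 kb, and their median scores of 57.5, 56.4 and 52.5 were near the cutoff of 50.

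**Figure D3:**
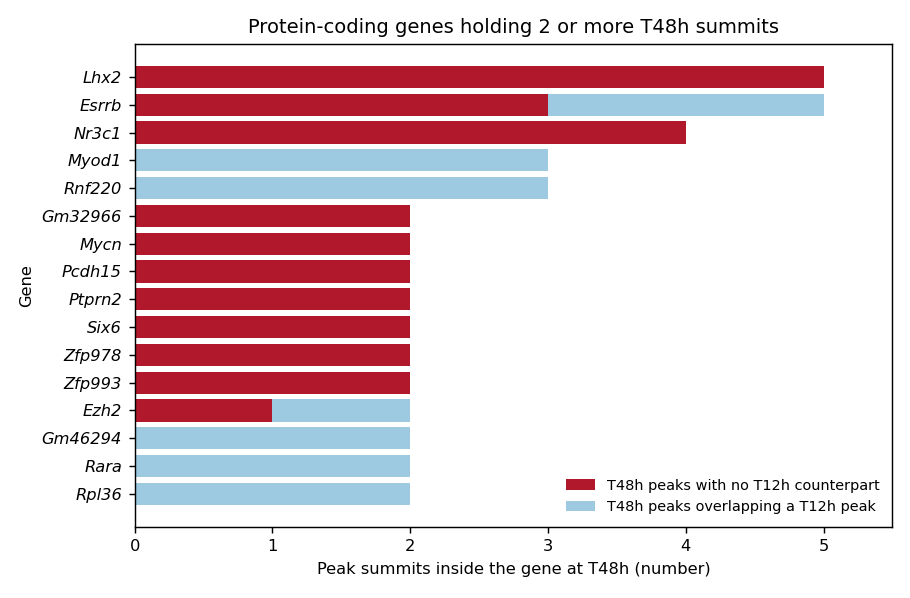
Number of T48h summits inside each of the 16 protein-coding genes that held 2 or more (x axis), split by whether the peak overlaps a T12h peak. All 5 Lhx2 peaks and both Six6 peaks are without a T12h counterpart. Gm46294 and Rara share the same pair of peaks.

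None of the 7 member peaks overlapped a T12h peak. In the whole T48h list 227 of 660 peaks did so, 34.4%, and the share depended on the score. Each score limit used below is a member peak's own score, so each set includes that peak, and the shares and interval test nothing. Of the 84 T48h peaks that scored at least as high as the fifth Lhx2 peak, 82 (97.6%, exact binomial 95% interval 91.7 to 99.7) overlapped a T12h peak, and this Lhx2 peak was 1 of the 2 that did not. Of the 109 that scored at least as high as the second Six6 peak, 102 overlapped one (93.6%). Of the 115 that scored at least as high as the third Lhx2 peak, 106 overlapped one (92.2%), and 3 of the remaining 9 were in Lhx2 or Six6. The other 6 lay in Mycn, Esrrb and Nr3c1 and 1302 bp from Inha. At the lower end, of the 468 peaks that scored at least as high as the first Lhx2 peak, 217 (46.4%) overlapped a T12h peak, so the lack of a counterpart is common for peaks as weak as that one. The T12h library had fewer filtered tags but the longer peak list, and tag numbers at T12h under these 7 peaks were not analysed here.

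In strength the 7 peaks ranged widely. They come from 2 genes and 1 library and are not independent, so the comparisons below carry no test. Their median fold was 9.82, against 7.66 for all T48h peaks and 7.31 for those without a T12h counterpart. Their median score was 92.69, against 63.83 for the list and 57.86 for peaks without a counterpart. Their median width was 305 bp, against 297 bp for the list and 246 bp for peaks without a counterpart. Their median tag number was 38, against 32.5 and 25 in the same order. Of the 7, the fold was above the list's median in 6 and the score in 6. The fourth Lhx2 peak was the one below it in fold, and the first Lhx2 peak the one below it in score. By score they ranked from 84 (the fifth Lhx2 peak) to 468 (the first) among the 660, and by fold from 63 (the second Six6 peak) to 471 (the fourth Lhx2 peak).

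**Figure D4:**
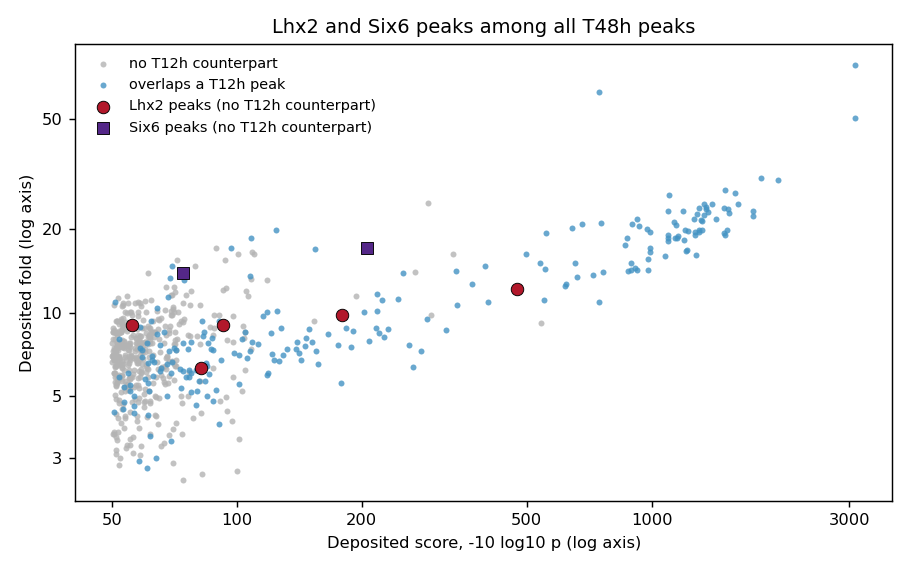
Deposited score (x axis, 10 times the negative log10 of p, log axis) and deposited fold (y axis, log axis) of the 660 T48h peaks, with Lhx2 peaks as large circles and Six6 peaks as squares. Nearly all peaks that score at least as high as the fifth Lhx2 peak, at 474.34, overlap a T12h peak. Just below that score, peaks with and without a T12h counterpart mix. The first Lhx2 peak, at 55.86, stands among peaks that mostly do not overlap one.

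The position of the 7 summits relative to gene starts was also described. It is tied to the selection, since only summits in or near the named genes were kept. The shares below cover T48h peaks anywhere in the genome, so the comparison lends no support. In the table of RefSeq starts, 4 of the 7 had a start within 1 kb, namely the first Lhx2 summit, both Six6 summits and the fifth Lhx2 summit, the last by the start of Gm13584. Among all T48h peaks 28.5% had a start within 1 kb (exact binomial 95% interval 25.1 to 32.1), among those without a T12h counterpart 9.01% (6.48 to 12.1), and among those with one 65.6% (59.1 to 71.8). The 4 summits come from 2 genes and are not independent, so no test was made.

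Promoter windows of 300 bp, from 250 bp before to 50 bp after a start, were found for 6 of the 7 members, 13 windows in all, and Rax is named only. Over the 32851 windows of the table the median GC content was 52.7% (quartiles 45.7 and 61.7) and the median number of CpG dinucleotides was 7 (quartiles 3 and 20). The Lhx2 windows held 34 and 29 CpG dinucleotides at a GC content of 74.7% and 69.3%, and the Six6 window held 20 at 62.3%. Both Lhx2 windows held more than any other window of the members. The upstream window of Mitf, with 22 and no peak near it, held more than that of Six6. Windows of the other members without peaks held 18 and 16 at Pax6, 14 at Six3, 6 to 16 at the 4 starts of Otx2, some of which overlap, and 5 and 8 at the remaining starts of Mitf.

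Short motifs were searched on both strands in the same windows. TAATTA, the core bound by many LIM and paired-type homeodomain factors, occurred in 3 of the 13 windows, 2 of Otx2 and 1 of Mitf, and in 5.29% of all windows. TAATCC, the Otx-type core, occurred in 1 Otx2 and 1 Mitf window and in 7.06% of all. TATAAA, the TATA box, occurred in 1 Otx2 and 1 Mitf window and in 13.6% of all. TGATAC, a core of sine oculis family factors, and CACGTG, the E-box, occurred in none of the 13, against 5.46% and 7.15% of all. The cores TAATTA and TAATCC share the letters TAAT, so their matches can overlap. None of these motifs was in the windows of Lhx2, Six6, Six3 or Pax6. The sequence under the peaks themselves was not analysed here.

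A further list of 50 genes of the optic vesicle, retinal progenitors and pigment epithelium was examined by the same 50 kb rule. At T12h 6 of the 50 had a peak (12%, against 12.3% of all protein-coding genes), and at T48h 1 of the 50 had one (2.00%, against 6.00%). The T12h share was thus close to that of all genes. The T48h count of 1 has an exact binomial 95% interval of 0.0506 to 10.6%. This list too was chosen with earlier results of these data known, so these shares test nothing. Among the T12h peaks were ones at 7.53 kb from Meis1 (39 tags, fold 9.71), a TALE homeodomain gene, and at 9.63 kb from Foxd1 (27 tags, fold 7.47), a forkhead gene of the temporal retina. Nr2e1, a nuclear receptor gene of neural progenitors, had one at 8.37 kb (20 tags, fold 6.4). Sox2, a neural progenitor gene, had one at 11.5 kb (37 tags, fold 5.41). At T48h the peak lay 3.09 kb from Crx, a photoreceptor homeodomain gene (20 tags, fold 6.86). None of these 5 peaks overlapped a peak of the other time, and the highest score among them was 109.46, at Meis1, against 474.34 for the fifth Lhx2 peak.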

How the data were processed

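Anti-HA ChIP-seq and input libraries from embryoid bodies were sequenced, 1 of each per rescue time. Fixation used disuccinimidyl glutarate (2 µM, 30 min) and then paraformaldehyde (1%, 10 min), per the labels' protocols. The submitters' processing notes list mm10 as the build, and Bowtie2, deepTools, HOMER 4.9.1 and SAMtools 1.5 as tools. Peaks were called per library by MACS 1.4.2 against 1 control library (p cutoff 1e-05, 1 tag kept per position, larger dataset scaled down), per the file headers. The authors deposited for each peak a tag count that is not normalised, a score (10 times the negative log10 of the p-value), a ratio or fold over the local background, and a false discovery rate in percent. None was recomputed.

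Summits, gene distances, overlaps (at least 1 bp between lists) and promoter features were computed in Python 3.11.15 (pandas 2.3.3, numpy 2.4.6, matplotlib 3.10.9, scipy 1.17.1), and gene assignment was tested on simulated data. Gene spans and promoters came from RefSeq (GRCm38.p6). All 7 symbols matched. Always named were the 7 members, genes at or nearest to their peaks, and genes of the further list with a peak, some of which are not reported here. The genes compared for several or high-scoring T48h peaks and the genes at the nearest summits were chosen after their values were seen. The members and lists were chosen with earlier results of these data known. The 95% intervals, exact binomial ones, reflect counting error alone. Alternatives varied the distance, the peaks used, the overlap and the background. Input reads and peak sequences were not analysed here.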

Additional observations from a re-analysis of the deposited data

How the results depend on the processing

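At every distance tried, 1, 5, 10 and 100 kb, Lhx2 and Six6 kept 7 T48h peaks and none of the 7 genes had a T12h peak. A smaller distance could not remove a peak, since all 7 summits lay inside the genes. At T12h none could be added, since the nearest summit to any of the 7 genes was 116 kb away. The share of all protein-coding genes with a peak changed with the distance by construction, to 4.25%, 5.08%, 5.99% and 18.4% at T12h and 1.69%, 2.12%, 2.65% and 9.76% at T48h. Limiting the lists to peaks with a false discovery rate of at most 5% left 4 of the 7 peaks, 3 in Lhx2 and 1 in Six6. Of all peaks, it left 813 of 1197 at T12h and 141 of 660 at T48h, so the T48h list lost far more. The shares of genes were then 9.37% and 2.13% at T12h and T48h. The upper 50% by score left 6 (the first Lhx2 peak fell out), with 7.83% and 3.78%. A fold of at least 5 gave 11.5% and 5.44%, all annotated genes as background 9.34% and 4.76%, and equal list lengths 8.47% at T12h. No setting joined a member peak to a T12h peak, and none could, since the nearest T12h summits were 635 kb from Lhx2 and 403 kb from Six6. Of 62 values recomputed, 44 stayed and 18 moved, where a count stayed within 1.5 times its reported value (so that 6 peaks for 7 counts as staying) and a share stayed within its 95% interval. Many values that stayed could not move, such as the T12h member counts, which were 0 and could not rise under a filter. The tally is therefore no measure of robustness. No paired analysis was possible because there was 1 library per group. Depth limits are unknown for uncalled regions, whose tag numbers were not analysed here.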
